A study of Homo sapiens with 6 samples.

Results

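The TALE homeobox genes MEIS1, MEIS2, MEIS3, PBX2, PBX3, PBX4, PKNOX1, PKNOX2 and TGIF1 were examined in NCRM-1, a human iPSC line grown as aggregates in bioreactors. The family was chosen on a measured value, the lower level of MEIS2 in the medium with additives, and its members were then taken by symbol, which gave 9 of the 19977 genes counted in each library. RNA from 6 libraries was sequenced after 4 days of culture, 3 from E8 medium holding 10 mg/ml polyethylene glycol plus heparin sodium salt at 0.1 µg/ml (labelled PEG and HS, here PEG/HS), and 3 from E8 medium without these additives (E8 control). Both groups are the same wild type line, were seeded as single cells and had 50% of their medium replaced on the second day. The treatment text of the labels names PEG and heparin for every library, so the group was taken from the treatment given for each one. The labels write of the control and the treated bioreactor in the singular and do not say whether the 3 libraries of a medium came from separate vessels. If they did not, vessel and medium are confounded, and the spread between libraries may be technical.

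TALE proteins carry a homeodomain with an insertion in the loop between its first helices. MEIS and PKNOX proteins pair with PBX proteins and keep them in the nucleus, and these complexes bind DNA together with HOX and other factors. MEIS1 and MEIS2 are known as retinoic acid responsive genes with roles in the nervous system, limbs, heart and blood, while TGIF1 is a repressor that binds SMAD proteins and is mutated in holoprosencephaly, a failure of forebrain division.

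Levels are given as CPM, counts relative to the library total after scaling by the TMM method, and the difference between media as log2 fold change (PEG/HS minus E8 control) with its standard error (SE) from the fit of edgeR over 16505 genes with at least 10 counts in all. Sums over lists of cell type markers, given below, took all genes listed and were not scaled by TMM. The libraries held 26991279 to 36185138 counts, with overlapping totals in the 2 media. All 9 members passed the filter, with 117 counts in all for MEIS1 and 41378 for PBX2. A gene was called at a Benjamini-Hochberg adjusted p under 0.05 over all genes tested. Because the fall of MEIS2 in this comparison led to the choice of the family, calls of its members are a description and no p-value is printed for them. Of all genes tested 25.3% were called, 12.2% higher and 13.1% lower in PEG/HS. Of the 9 members 6 were called, all of them lower in PEG/HS, namely MEIS1, MEIS2, MEIS3, PKNOX2, PBX2 and PBX3. The other 3, PKNOX1, PBX4 and TGIF1, were not called. The median log2 fold change of the members was -0.20, and that of all genes tested was 0.0031. In 7 members the highest library of one medium lay below the lowest of the other, 6 lower and 1 higher, against 39.3% of all genes without overlap and 19.8% without overlap and lower.

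**Figure D1:**
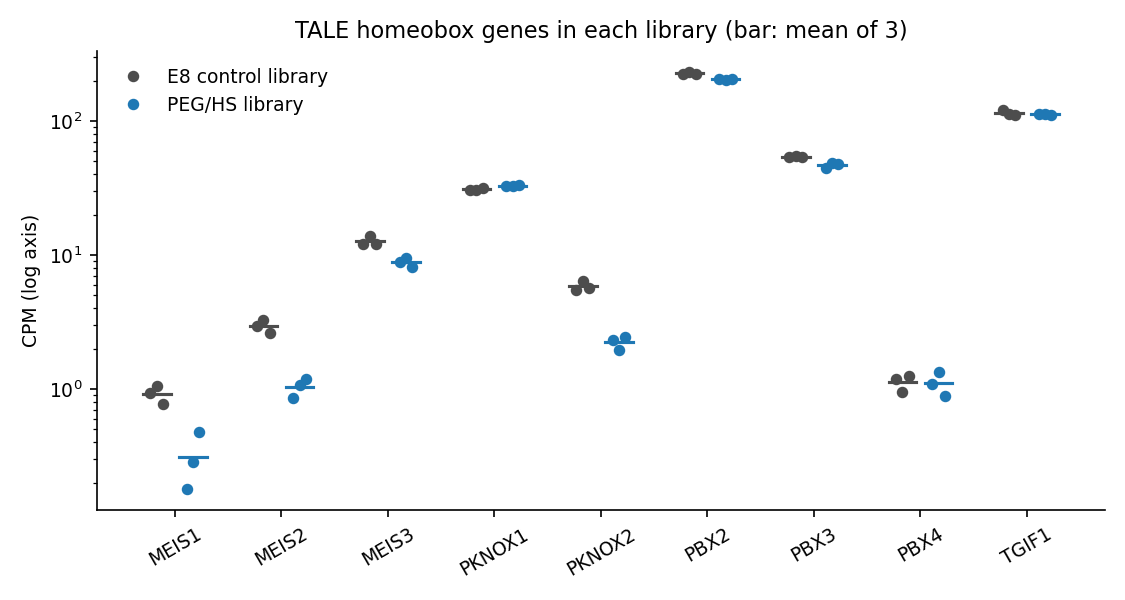
CPM of the 9 TALE homeobox genes on a log axis, with 1 point for each library (grey, E8 control; blue, PEG/HS) and a bar at the mean of 3. MEIS1, MEIS2 and PKNOX2 lie well apart between the media, and the points of PBX4 and TGIF1 overlap.

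The MEIS genes encode the DNA-binding partners of PBX proteins, and all 3 were lower in PEG/HS. MEIS2 (ENSG00000134138, chromosome 15, 36889204 to 37101299, minus strand, GRCh38) was counted 29, 30 and 40 times in PEG/HS and 79, 107 and 94 times in the E8 control. This gave 0.86, 1.06 and 1.18 CPM in PEG/HS and 2.93, 3.29 and 2.61 CPM in the E8 control. The lowest E8 control library lay 1.42 CPM above the highest PEG/HS library. The means were 1.03 ± 0.163 CPM (SD, n = 3) and 2.94 ± 0.345 CPM (SD, n = 3), a log2 fold change of -1.50 (SE 0.19) or 2.84-fold less in PEG/HS. By size of the fall MEIS2 was number 248 of the 16505 genes tested, and 21 of the 1161 genes within 1.5-fold of its E8 control level had a lower log2 fold change. The level of MEIS2 was low in both media, near 1 CPM with the additives.

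MEIS1 (ENSG00000143995, chromosome 2, 66433452 to 66573869, plus strand), best known as a partner of HOX proteins in blood progenitors and leukaemia, was the scarcest member. It had 6, 8 and 16 counts in PEG/HS and 25, 34 and 28 in the E8 control, which is 0.178, 0.283 and 0.473 CPM against 0.927, 1.05 and 0.776 CPM. Every PEG/HS library was below every E8 control library. The log2 fold change was -1.54 (SE 0.37), which differs from that of MEIS2 by less than either SE. Antisense genes cover 13.3% of the exon bases of MEIS1 and 3.62% of those of MEIS2, and whether the counting used the strand is not given in the sources used here.

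MEIS3 (ENSG00000105419, chromosome 19, 47403124 to 47419527, minus strand), a MEIS gene studied in hindbrain patterning, was the most counted of the class. It was measured at 8.84, 9.45 and 8.13 CPM in PEG/HS and 12.1, 13.97 and 12.0 CPM in the E8 control. The media did not overlap, and the change was smaller than in MEIS1 and MEIS2 (log2 fold change -0.53, SE 0.082). MEIS3 shares 7.55% of its 31-base words with transcripts of other genes, most with the pseudogene MEIS3P2.

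To compare the 3 MEIS genes with each other, counts were divided by the length of all annotated exons of a gene. On this scale the class summed to 1.83 ± 0.117 CPM per kilobase (SD, n = 3) in PEG/HS and 2.81 ± 0.255 CPM per kilobase (SD, n = 3) in the E8 control. MEIS3 made up 93.7% ± 1.73 of this sum in PEG/HS and 88.2% ± 0.676 in the E8 control (SD, n = 3). MEIS2 made up 4.77% ± 0.899 and 8.80% ± 0.432, and MEIS1 1.57% ± 0.831 and 2.98% ± 0.246 (SD, n = 3). The MEIS transcripts were thus mostly MEIS3 in every library, between 87.7% and 95.1%. The share depends on the length used, since MEIS2 took 10.2% and 17.8% of the class when counts were not divided by length.

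**Figure D2:**
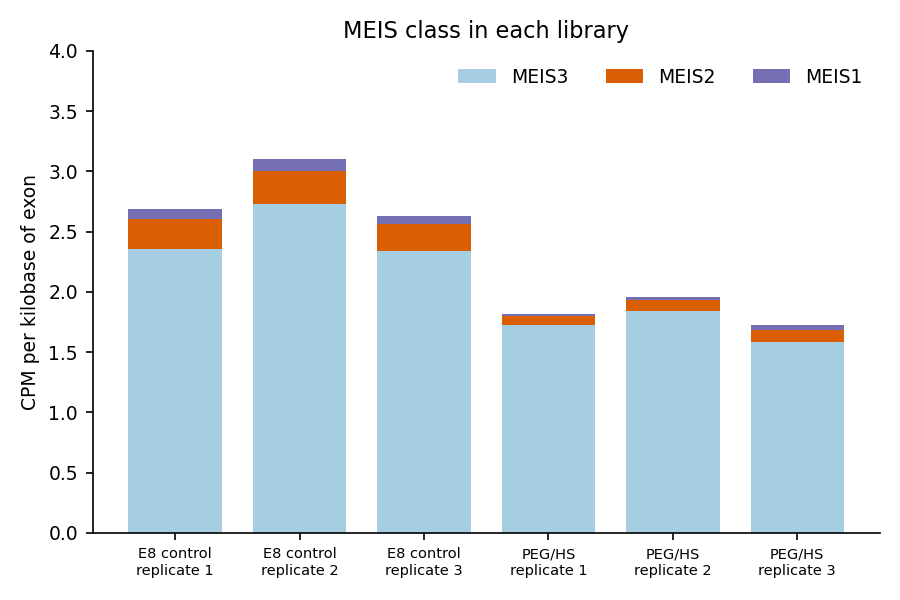
MEIS1, MEIS2 and MEIS3 stacked in each of the 6 libraries, in CPM per kilobase of exon. The E8 control libraries sum to 2.63 to 3.10 and the PEG/HS libraries to 1.73 to 1.96, with MEIS3 as the bulk of each bar.

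The sequence upstream of the start was read for the 2 members with the largest falls, and for a TGIF1 start as a window that holds a MEIS word. Each is the part, outside annotated exons, of the 250 bases before a RefSeq start (GRCh38.p14). MEIS1 is at chr2:66434875-66435124 (plus strand), MEIS2 at chr15:37098697-37098900 (minus strand) and TGIF1 at chr18:3447292-3447541 (plus strand), all 3 inside the GENCODE span of their gene and outside its exons. Capitals mark TGACAG, the core word bound by MEIS, PKNOX and TGIF proteins.
MEIS1: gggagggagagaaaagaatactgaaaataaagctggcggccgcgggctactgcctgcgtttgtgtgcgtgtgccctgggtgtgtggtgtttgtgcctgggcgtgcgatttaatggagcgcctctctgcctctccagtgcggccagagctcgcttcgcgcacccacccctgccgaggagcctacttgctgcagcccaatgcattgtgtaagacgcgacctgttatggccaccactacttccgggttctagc
MEIS2: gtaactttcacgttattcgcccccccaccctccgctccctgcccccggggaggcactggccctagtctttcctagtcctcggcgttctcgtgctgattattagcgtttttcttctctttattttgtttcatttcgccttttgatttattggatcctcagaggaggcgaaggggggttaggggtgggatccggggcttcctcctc
TGIF1: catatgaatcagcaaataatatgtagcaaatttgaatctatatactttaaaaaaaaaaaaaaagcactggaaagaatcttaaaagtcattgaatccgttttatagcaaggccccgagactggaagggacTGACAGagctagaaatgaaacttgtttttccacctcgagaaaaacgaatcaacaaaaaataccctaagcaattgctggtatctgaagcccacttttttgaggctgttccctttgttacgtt

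On both strands, TGACAG occurred in the 250 bases before 3 of the 16 starts listed for 8 members, 1 of PBX3 and 2 of TGIF1, and in 13.03% of all 35116 windows of that length in the RefSeq table. The PBX word TGATTGAT was in none of the 16 and in 0.416% of all windows. The nuclear receptor word AGGTCA was in 2, both of TGIF1, and in 12.1% of all windows. None of the 3 words, which do not overlap each other in these windows, was found before the starts of MEIS1, MEIS2 or MEIS3. PKNOX2 had no entry.

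The PKNOX genes (also called PREP) encode the other class of PBX partners, and the pair differed. PKNOX2 (ENSG00000165495, chromosome 11, 125164687 to 125433389, plus strand), the less broadly expressed of the pair, was at 2.31, 1.95 and 2.45 CPM in PEG/HS and 5.49, 6.40 and 5.63 CPM in the E8 control. Every PEG/HS library lay well below every E8 control library, with a gap of 3.03 CPM. Its log2 fold change was -1.38 (SE 0.13), or 2.597-fold less in PEG/HS. PKNOX1 (ENSG00000160199, chromosome 21, 42974510 to 43033931, plus strand), which is expressed in most tissues and is needed in the early embryo, was at 32.5, 32.9 and 33.4 CPM in PEG/HS and 30.7, 30.5 and 31.8 CPM in the E8 control. Each PEG/HS library was above each E8 control library, by at least 0.743 CPM, but the difference was small and not called (log2 fold change 0.088, SE 0.043).

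The PBX genes encode the shared partners of MEIS, PKNOX and HOX proteins, and PBX2 and PBX3 were slightly lower in PEG/HS. PBX2 (ENSG00000204304, chromosome 6, 32184733 to 32190202, minus strand), a broadly expressed gene of the MHC region, was at 205.7, 203.8 and 206.9 CPM in PEG/HS and 223.7, 233.9 and 223.1 CPM in the E8 control. Its log2 fold change was -0.14 (SE 0.028), a 1.10-fold difference without overlap. PBX2 shares 32.1% of its 31-base words with other genes, 18.4% with the pseudogene PBX2P1. Exons of ENSG00000273333 on the same strand cover 15.2% of the exon bases of PBX2. The counts of PBX2 therefore depend on how shared reads were assigned.

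PBX3 (ENSG00000167081, chromosome 9, 125747345 to 125967377, plus strand), which acts in respiratory neurons and in leukaemia, was at 44.5, 48.5 and 47.6 CPM in PEG/HS and 53.6, 54.4 and 53.8 CPM in the E8 control. The media were 5.08 CPM apart at their nearest libraries (log2 fold change -0.20, SE 0.040). PBX4 (ENSG00000105717, chromosome 19, 19561707 to 19618693, minus strand), known mainly from testis, had 37, 38 and 30 counts in PEG/HS and 32, 31 and 45 in the E8 control. Its media overlapped at 1.11 ± 0.229 and 1.13 ± 0.155 CPM (SD, n = 3), with a log2 fold change of -0.034 and an SE of 0.24 that leaves moderate changes in either direction undetectable at this depth.

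TGIF1 (ENSG00000177426, chromosome 18, 3411608 to 3459978, plus strand) was at 113.8, 112.8 and 111.8 CPM in PEG/HS and 121.5, 113.3 and 111.5 CPM in the E8 control. The media overlapped, and E8 control replicate 1 was the highest of the 6 libraries. The log2 fold change was -0.032 (SE 0.034), and without that library it was 0.0014.

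**Figure D3:**
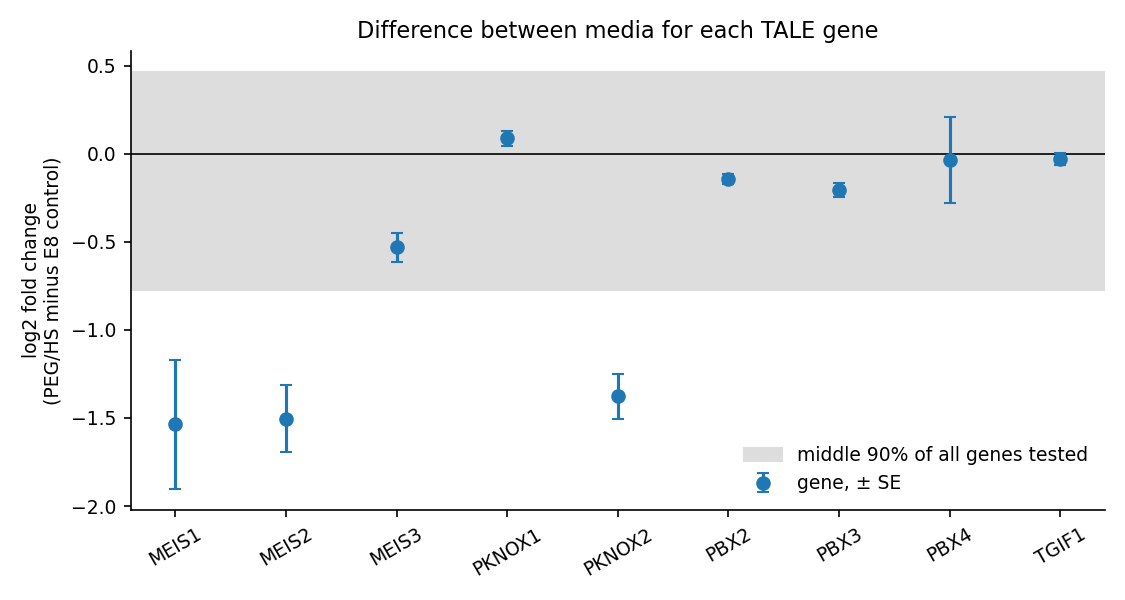
Log2 fold change (PEG/HS minus E8 control) of each TALE gene with its SE, over a grey band that holds the middle 90% of all genes tested, -0.78 to 0.47. MEIS1, MEIS2 and PKNOX2 lie below the band and the other 6 inside it.

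Per kilobase of exon, the order of the members in the E8 control ran from PBX2 (51.9 ± 1.39 CPM per kilobase, SD, n = 3) over TGIF1 (14.2 ± 0.653), PBX3 (11.0 ± 0.0863), PKNOX1 (4.06 ± 0.0900), MEIS3 (2.48 ± 0.218), PKNOX2 (0.893 ± 0.0755), PBX4 (0.484 ± 0.0663) and MEIS2 (0.247 ± 0.0290) to MEIS1 (0.0838 ± 0.0124). Each step in this order was larger than the SDs of the 2 neighbours added together. In PEG/HS the order was the same except for one exchange. PKNOX2 (0.342 ± 0.0400 CPM per kilobase, SD, n = 3) stood below PBX4 (0.476 ± 0.0984), a step smaller than their SDs added together. MEIS2 was at 0.0870 ± 0.0137 and MEIS1 at 0.0285 ± 0.0137 CPM per kilobase (SD, n = 3). The 3 genes with the largest falls were thus among the 4 of lowest level in the E8 control.

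The spread between libraries of a medium was largest in members with few counts. In PEG/HS the coefficient of variation was 48.0% for MEIS1, where counting alone gives 31.6%, and 15.7% for MEIS2, where counting alone gives 17.4%. It was 11.7% for PKNOX2 (counting alone 11.8%), 0.752% for PBX2 and 1.40% for PKNOX1. In E8 control it was 14.8%, 11.7% and 8.46% for MEIS1, MEIS2 and PKNOX2. The PEG/HS libraries of MEIS1 thus spread most of all member and medium pairs.

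**Figure D4:**
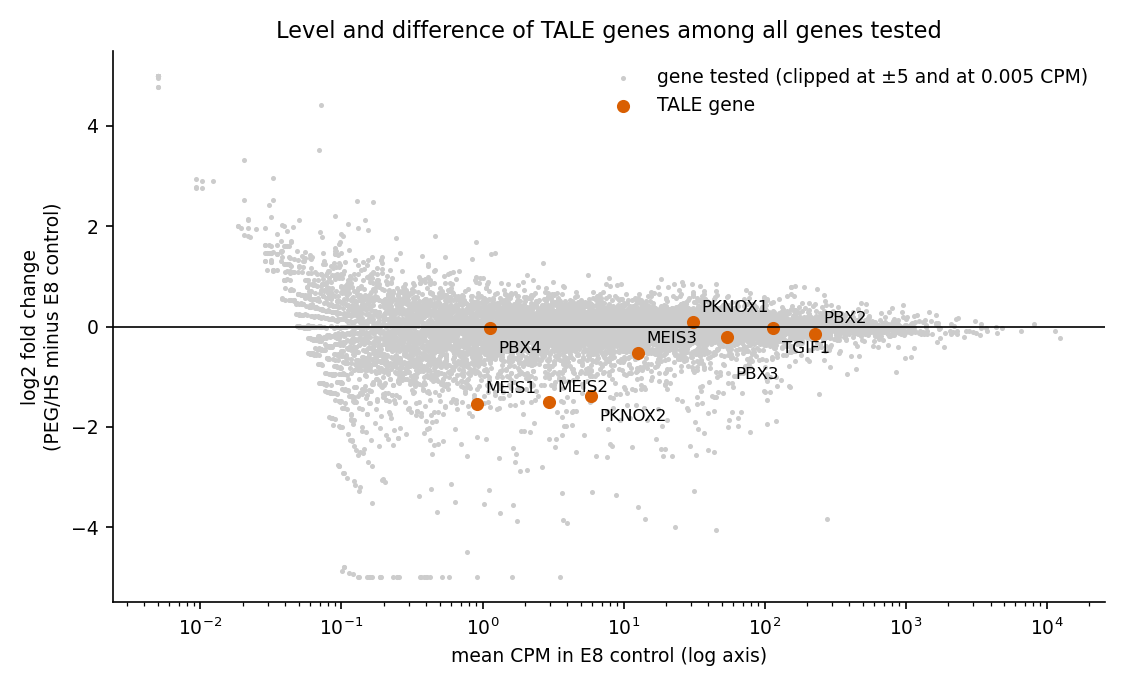
Mean CPM in the E8 control (log axis) against log2 fold change (PEG/HS minus E8 control) for the genes tested, in grey, with the TALE genes in orange. MEIS1, MEIS2 and PKNOX2 lie below -1 at levels from 0.916 to 5.84 CPM, and the members above 10 CPM lie nearer to 0.

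Iroquois genes, the other large TALE group, which pattern the neural plate and act as repressors in many tissues, ranged more widely. Of 6 tested, 4 were called lower, 1 higher and 1 was not called, where 25.3% of all genes were called. They are part of a list of 9 other TALE genes tested. Of that list 5 were called lower, 1 higher and 3 were not called (66.7% called). IRX2 fell from 69.5 ± 2.38 to 27.8 ± 2.56 CPM (SD, n = 3; log2 fold change -1.33, adjusted p = 7.02e-11, edgeR) and IRX1 from 15.8 ± 1.24 to 7.91 ± 0.596 CPM (log2 fold change -1.0015, adjusted p = 1.66e-07, edgeR). IRX3 fell from 3.64 ± 0.439 to 0.804 ± 0.157 CPM (log2 fold change -2.15, adjusted p = 6.43e-07, edgeR) and IRX5 from 1.71 ± 0.354 to 0.257 ± 0.137 CPM (log2 fold change -2.70, adjusted p = 2.64e-05, edgeR). IRX4 rose from 3.39 ± 0.284 to 5.39 ± 0.657 CPM (log2 fold change 0.66, adjusted p = 0.00104, edgeR). IRX6 was at 0.151 ± 0.0659 CPM in the E8 control and 0.0395 ± 0.0453 CPM in PEG/HS (adjusted p = 0.158, edgeR). Its counts were 3, 0 and 1 in PEG/HS and 6, 3 and 5 in the E8 control, and it passed the filter only through the E8 control.

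HOX genes, whose proteins bind DNA with PBX and MEIS, were close to silent. Of 39 listed, 13 had no count in any library and 12 passed the filter, and none exceeded 0.72 CPM in any library. HOXB4, 1 of 12 tested (8.33%, against 25.3% of all genes tested), was called lower. It was at 0.0927 ± 0.0239 CPM in PEG/HS and 0.296 ± 0.0844 CPM in the E8 control (SD, n = 3). Its counts were 3, 2 and 4 in PEG/HS and 6, 9 and 14 in the E8 control, and it passed the filter only through the E8 control. In 7 of 13 alternative settings 0 HOX genes were called, among them DESeq2 and the fits without PEG/HS replicate 3, E8 control replicate 2 or E8 control replicate 3. Of 21 partners and regulators of TALE proteins, 5 were called higher and 4 lower (42.9%, against 25.3% of all genes tested), with a median log2 fold change of -0.027. SKIL, a SMAD corepressor, rose from 153.0 ± 9.39 to 241.5 ± 5.42 CPM (log2 fold change 0.66, adjusted p = 4.72e-09, edgeR). PBXIP1, which binds PBX proteins and keeps them from DNA, fell from 47.4 ± 0.227 to 38.0 ± 0.868 CPM (log2 fold change -0.32, adjusted p = 1.65e-05, edgeR). SMAD4, the common partner of receptor SMADs, fell from 126.5 ± 0.290 to 103.0 ± 0.9995 CPM (log2 fold change -0.30, adjusted p = 1.37e-06, edgeR).

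Of 15 genes known from other cells as targets of MEIS, PBX or PKNOX factors, 1 was called higher and 6 lower (46.7%, against 25.3% of all genes tested), with a median log2 fold change of -0.39. The number of calls was 5 with DESeq2 and 5 to 8 over the alternatives. This list and the others compared here were chosen with earlier results of these data known, so their shares called are a description. FLT3, a receptor of blood progenitors, was at 0.508 ± 0.111 CPM in PEG/HS and 1.14 ± 0.136 CPM in the E8 control (SD, n = 3; log2 fold change -1.17, adjusted p = 0.00678, edgeR). PAX6, a regulator of eye and forebrain, had the same log2 fold change of -1.17 (adjusted p = 0.0016, edgeR). It is also among the neuroectoderm markers described below. MEOX1, 1 of the 6 called lower, had 0 counts in each PEG/HS library and 4, 6 and 1 counts in the E8 control, too few for a fold, and it passed the filter only through the E8 control. Of the retinoic acid response genes 14 of 15 were tested, with 2 called higher and 5 lower (50%, against the same 25.3%), and a median log2 fold change of -0.12. The largest falls were in the retinoid enzymes CYP26A1 (log2 fold change -3.99), CYP26C1 (-3.56) and DHRS3 (-1.86), each called with edgeR.

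**Figure D5:**
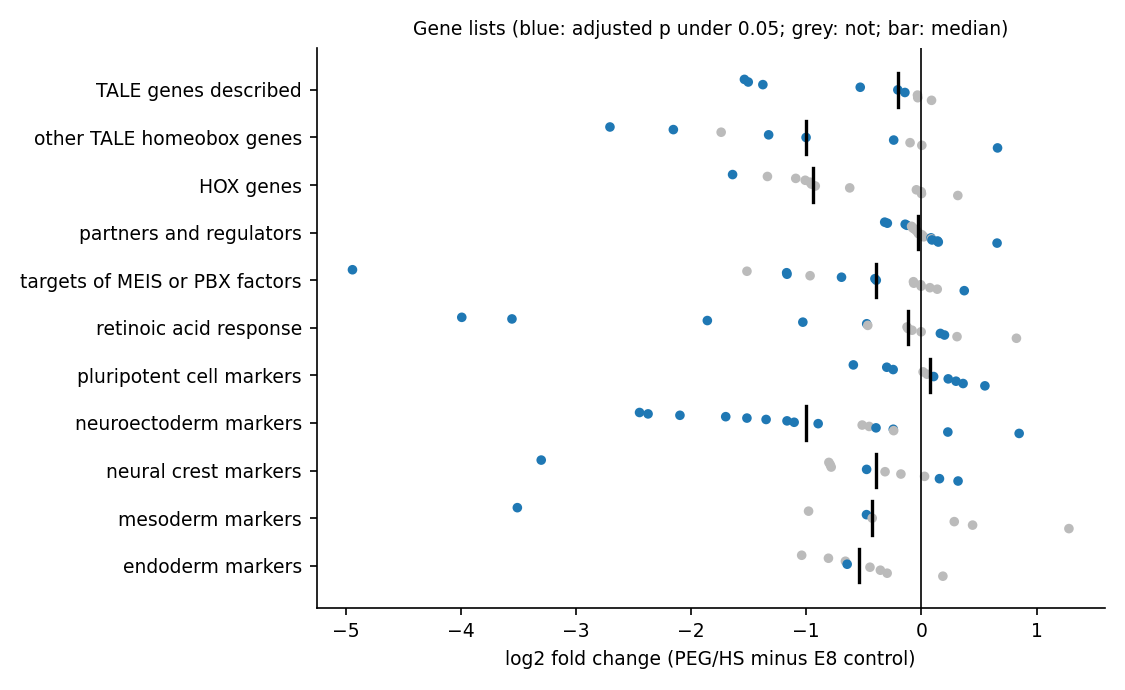
Log2 fold change (PEG/HS minus E8 control) of each tested gene in the TALE family and in 10 related lists, blue where the adjusted p was under 0.05 and grey otherwise, with a black bar at the list's median. The medians of the other TALE genes (-1.0015), the neuroectoderm markers (-1.0008) and the HOX genes (-0.94) lie furthest to the left. The HOX genes were close to silent, and 11 of the 12 tested were not called. The pluripotent cell markers are centred near 0.

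The labelled cell type was checked on 10 markers of pluripotent cells, which summed to 9142 to 9302 CPM in PEG/HS and 8754 to 8880 CPM in the E8 control with none at 0. Of these 5 were called higher, NANOG (log2 fold change 0.55) and L1TD1 (0.36) among them, and 3 lower, SOX2 (-0.59) the furthest. That is 80% called, against 25.3% of all genes tested (12.2% higher and 13.1% lower). Most, but not all, markers of neuroectoderm were lower, as MEIS1, MEIS2 and PKNOX2 were. Of 16, 11 were called lower, 2 higher and 3 were not called, where 13.1% of all genes were called lower and 12.2% higher, and their sum was 626.6 to 661.9 CPM in PEG/HS and 834.9 to 854.6 CPM in the E8 control. FEZF1, LHX5 and OTX2 fell most (log2 fold change -2.45, -2.37 and -2.10), the 2 called higher were SIX6 (0.85) and POU3F1 (0.23), and no marker of this list was at 0 in all libraries. In a bulk sample fewer cells of a type and less RNA per cell cannot be told apart, and the part of these cells in the lower MEIS and PKNOX2 levels was not tested.

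The shares called in the next 3 lists stand beside 25.3% of all genes. Neural crest markers, with 2 of 10 called higher and 2 lower, summed to 130.7 to 134.2 CPM in PEG/HS and 122.2 to 128.5 CPM in the E8 control. TFAP2A was furthest lower (log2 fold change -3.30), SOX10 was lower (-0.48) and FOXD3 higher (0.32), all 3 called. Mesoderm markers, with 2 of 7 tested called lower (28.6%, near that share), summed to 5.76 to 5.97 and 6.30 to 7.46 CPM, and MSGN1 was at 0. The 2 were TBX6 (log2 fold change -0.48) and HAND1, which had 1, 0 and 0 counts against 6, 7 and 2 and passed the filter only through the E8 control. In 7 of 13 alternatives 1 mesoderm marker was called. Endoderm markers, with 1 of 8 tested called lower (HHEX, log2 fold change -0.64), summed to 7.25 to 7.77 and 10.0 to 11.2 CPM.

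The genes whose pattern over the 6 libraries was most like that of MEIS2 were found by the Euclidean distance between log2 CPM profiles centred on each gene's mean, among 13549 other genes with a mean of at least 1 CPM. IGFBP3 was nearest (distance 0.101), with 14.8, 17.02 and 19.7 CPM in PEG/HS and 43.3, 51.9 and 40.9 CPM in the E8 control. FOXI3 (0.250), EPHA4 (0.310), RHBDL3 (0.317) and HPGD (0.318) came next, all with log2 fold changes between -1.53 and -1.30. These 5 were picked for their likeness over the same libraries, so their shared pattern is a description.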

How the data were processed

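Poly(A) RNA libraries (stranded kit) of 6 NCRM-1 samples, 3 per medium, were analysed. The authors deposited raw counts per gene, 1 library per file, from reads trimmed with Trim Galore 0.6.7 and mapped to GRCh38 with STAR 2.6.1. The counting tool, its use of strand and its handling of reads that fit several genes are not given in the sources used here. Symbols, positions and exon lengths came from GENCODE 44, which matched 19916 of 19977 identifiers.

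Genes with at least 10 counts in total were fitted with edgeR 4.0.16 (R 4.3.3), TMM factors (0.994 to 1.006), glmQLFit and glmQLFTest without covariates, and Benjamini-Hochberg adjustment. SE was obtained by dividing the size of the log2 fold change by the root of the F statistic. Alternatives were DESeq2 1.42.0, limma-voom (limma 3.58.1), other scalings and filters, the replicate number as a block and each library left out. The common biological coefficient of variation was 3.12%, and replicates differed by more than counting noise.

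The members and gene lists were chosen with earlier results of these data known. Named besides members were tested TALE genes, the 3 called genes with the largest change per list and the 5 genes most like MEIS2 (pseudocount 0.1). Some genes that this rule takes are not reported here.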

Additional observations from a re-analysis of the deposited data

How the results depend on the processing

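The 6 called members were called, with the same sign, in each of the 13 alternatives. These refits use the same comparison that led to the choice of MEIS2, so the repeated calls are a description. With a library left out, the log2 fold change was -1.62 to -1.38 for MEIS2, -1.99 to -1.24 for MEIS1, -1.45 to -1.29 for PKNOX2 and -0.58 to -0.46 for MEIS3. The 2 uncalled members PBX4 (-0.19 to 0.11) and TGIF1 (-0.056 to 0.0014) changed sign. PBX4 turned to 0.11 without PEG/HS replicate 3 and to 0.050 without E8 control replicate 3, and TGIF1 to 0.0014 without E8 control replicate 1. Neural crest calls went from 4 to 2 without E8 control replicate 1, mesoderm calls from 2 to 1 in 7 alternatives and endoderm calls from 1 to 2 in 2 alternatives. Genes called numbered 4173 of 16505 tested (25.3%), and 3114 to 4444 in the alternatives, which tested 14889 to 18178 genes. With counts not divided by length the MEIS2 share of the MEIS class was 10.2% in PEG/HS and 17.8% in E8 control, and with a library left out it was 4.27% to 5.15% and 8.63% to 9.05%. The replicate numbers did not pair the samples (correlation of same-numbered libraries 0.023, 0.039 and 0.046), and with the number as a block 4444 genes and the same 6 members were called. Low depth limits MEIS1, MEIS2, PBX4, IRX3, IRX5, IRX6 and the HOX genes.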
